A study of Mus musculus with 2 samples.

Results

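Isolated regions are here the macroH2A1.1-enriched regions of the autosomes that lay 50 kb or more from the region before them and 50 kb or more from the region after them. They were chosen by the positions of regions in the authors' list, and the first and last region of each chromosome were left out. Of the 49047 autosomal regions, 1876 (3.82%) met this rule, out of 50887 regions in the whole list. Another 8348 autosomal regions (17%) had 1 neighbour within 50 kb, 38785 (79.1%) had both neighbours within 50 kb, and 38 were the first or last of a chromosome.

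The list came from chromatin immunoprecipitation followed by sequencing (ChIP-seq) in wild-type C2C12 cells, an immortal mouse myoblast line that fuses into myotubes once serum is reduced. There was 1 ChIP library, made with an antibody that recognises macroH2A1.1, and 1 input library, made from chromatin without antibody. The source of both is given as myoblast, while their short descriptions carry DM, the abbreviation of differentiation medium, and the study's text places this profile in differentiated myotubes. Because the labels leave the state undecided, the name C2C12 cells is used. The cells are 1 clonal line, no other genotype or treatment entered the list, and no expression values were used to check the cell type.

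MacroH2A is a histone variant in which the part that packs into the nucleosome is followed by a linker and a globular macrodomain. Alternative splicing gives macroH2A1.1, whose macrodomain can bind ADP-ribose, and macroH2A1.2, whose macrodomain cannot. In muscle cells macroH2A1.1 increases during differentiation. MacroH2A typically occupies broad stretches of chromatin rather than sharp sites, and the ChIP signal of such stretches is low. Most regions of the list lay in chains with close neighbours, and the isolated ones are the exceptions to this.

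With 1 library a group there was no replicate error, so no comparison of conditions could be tested and regions are not replicates. Intervals given for reads are 95% exact (Clopper-Pearson) intervals that cover counting error only and take reads as independent. Reads copied by PCR are not independent molecules, so the counting error may be larger than these intervals show. The list held 4884176 ChIP reads and 1585463 input reads within regions. Raw ChIP over input is the quotient of the read counts of a region without scaling. The authors' log2 values implied that ChIP reads had been divided by 1.45 before they were compared with input reads, so a raw ratio of 1.45 stands for no enrichment, and "fold" below means the raw ratio divided by 1.45. All positions are 1-based in mm9. No mm9 sequence or gene annotation was used here, so the regions carry no gene name and no sequence.

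Isolated regions were narrow and held few reads. The median isolated region was 3000 bp wide (quartiles 2200 and 3800 bp), and widths ranged from 200 to 39200 bp. In all other autosomal regions the median was 3600 bp (quartiles 2600 and 5200 bp). An isolated region held a median of 53 ChIP reads (quartiles 44 and 68) and 18 input reads (quartiles 11 and 25), against medians of 70 ChIP reads and 23 input reads in the others. Only 396 of the 1876 isolated regions (21.1%) were wider than 4000 bp, compared with 39.8% of the others. At the other end, 58 isolated regions (3.09%) were 1000 bp wide or less, compared with 1.21% of the others. The isolated regions covered 6.10 Mb, which was 2.76% of the autosomal length within regions, and contained 2.49% of the ChIP reads and 2.52% of the input reads there.

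**Figure D1:**
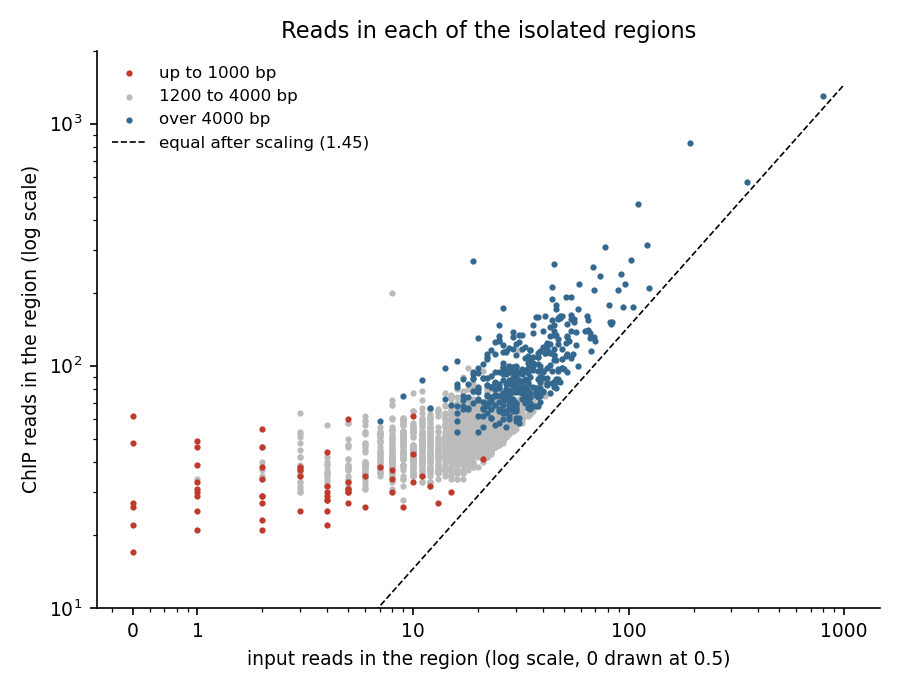
Each point is 1 of the 1876 isolated regions, with its input reads on the x axis and its ChIP reads on the y axis (both log scales, 0 input reads drawn at 0.5), coloured by width; the dashed line marks equal ChIP and input after division by 1.45. Regions of 1000 bp or less have between 0 and 21 input reads, and the region with the most reads (1306 ChIP and 797 input) lies close to the line.

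The typical enrichment of isolated regions was close to that of the rest. Their median raw ratio was 3.13, with quartiles at 2.47 and 4.33, and that of all other autosomal regions was 3.21, with quartiles at 2.54 and 4.15. The quotient of these medians was 0.978. For scale, a region with the median counts of the isolated set, 53 ChIP and 18 input reads, had an interval from 1.70 to 5.34. This is the counting error of a single region and does not measure the error of the difference between the medians. With all reads of a set summed, the raw ratio was 3.037 (95% exact interval 3.002 to 3.072) in isolated regions and 3.079 (3.073 to 3.085) in the others. Regions with 1 neighbour within 50 kb had a summed ratio of 2.96 (2.94 to 2.97), below both, so the summed ratio did not follow the order of isolation.

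The ratios of isolated regions were spread more widely than those of all autosomal regions, and the low side of this spread was much like that of regions with 1 neighbour within 50 kb. Of the isolated regions, 270 (14.4%) stayed under 1.5-fold, and 11.4% of all autosomal regions did so. At the high end, 214 isolated regions (11.4%) reached 4-fold or more, against 8.31% of all autosomal regions. Between these ends, 1083 isolated regions (57.7%) were at 2-fold or more, and the share over all autosomal regions was 61.2%. Regions with 1 neighbour within 50 kb had 13.4% under 1.5-fold and 57.8% at 2-fold or more, close to the isolated regions, but 8.55% at 4-fold or more. The 95th percentile of the raw ratio was 8.0 in isolated regions and 6.67 in the others. The wide spread accompanied the low counts: the interval of the fold lay above 1 in 1448 isolated regions (77.2%), compared with 85.4% of all autosomal regions. The authors' false discovery rate (FDR) had a median of 9.57e-08 in isolated regions and was above 0.01 in 135 of them (7.2%), compared with a median of 8.42e-10 and 4.08% in the others. The part of read depth in the spread was not tested.

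**Figure D2:**
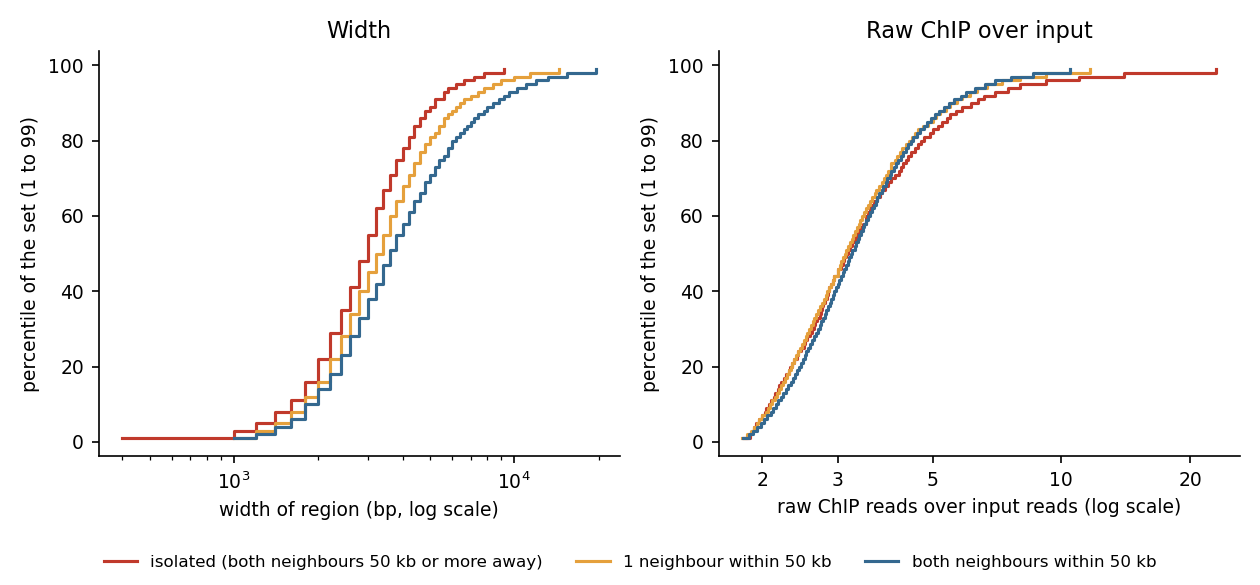
Percentiles 1 to 99 of the width in bp (left, log scale) and of raw ChIP over input (right, log scale) are drawn for isolated regions, for regions with 1 neighbour within 50 kb and for regions with both neighbours within 50 kb. The width curves are ordered over most of their course, with medians of 3000, 3200 and 3600 bp, while the ratio curves lie close together up to their medians and the isolated set extends farthest to the right at the high percentiles (95th percentile 8.0).

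Width and ratio were related within the isolated set. The Spearman correlation between width and raw ratio was -0.336 across the 1876 isolated regions and -0.238 across the 47171 others, and all of these regions share the same pair of libraries. Regions were therefore compared within classes of width. Only regions that passed the authors' caller are listed, so a region with few reads entered only at a higher ratio. The part of this selection in the correlation was not tested. Among regions from 1200 to 2000 bp the median raw ratio was 4.0 in the isolated and in the other set, with 368 and 6346 regions. Isolated regions had the lower median in the next classes: 3.22 against 3.35 from 2200 to 3000 bp, 2.83 against 3.09 from 3200 to 4000 bp, and 2.86 against 3.00 over 4000 bp. In the widest class both densities were lower: the isolated medians were 17.4 ChIP and 6.09 input reads per kb, and the others 20.2 and 6.70. Fewer input reads raise the ratio, so the lower ratio there accompanied the fewer ChIP reads.

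The narrowest class went the other way. The 58 isolated regions of 1000 bp or less had a median raw ratio of 9.42, with quartiles at 5.50 and 25, and the 571 other regions of that width had a median of 5.60, with quartiles at 4.0 and 8.75. Both sets held a median of 31 ChIP reads, but the isolated regions held 4 input reads and the others 6. At such low counts the selection by the caller acts on both sets, and its part in these ratios was not tested. Summed reads gave a ratio of 7.5 (1951 ChIP and 260 input reads, 95% exact interval 6.59 to 8.57) and 5.29 (18569 and 3510 reads, 5.10 to 5.49). An enrichment of 4-fold or more was reached by 43 of the 58 (74.1%) and by 275 of the 571 (48.2%), where the share over all autosomal regions was 8.31%. The isolated ones were also narrower within this class, at medians of 600 and 1000 bp. Up to 600 bp, the summed ratio was 9.63 (7.87 to 11.9) in 30 isolated regions and 6.65 (5.90 to 7.52) in 70 others. In the rest of the class, up to 1000 bp, it was 6.08 (5.13 to 7.25) in 28 and 5.16 (4.97 to 5.36) in 501, and these intervals overlapped. The 58 narrow isolated regions lay on 17 of the 19 autosomes, with at most 7 on any of them. Without regions of 1000 bp or less, 9.41% of isolated and 7.70% of other regions reached 4-fold. The class limits had been set with earlier results of these data known, and the split at 600 bp was made after the values of the class had been seen.

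**Figure D3:**
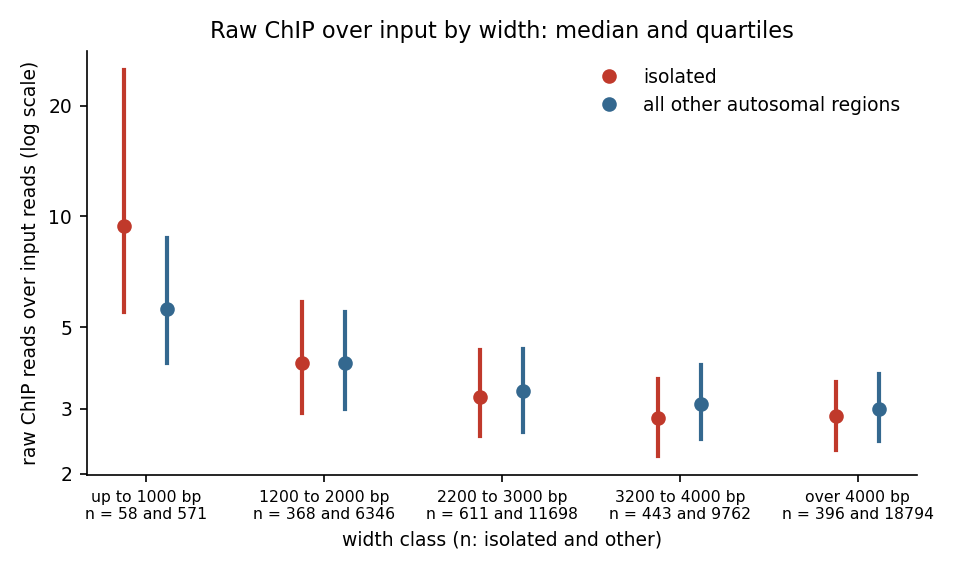
Points are the median and lines the quartiles of raw ChIP over input (log scale) in 5 classes of width, for isolated regions and for all other autosomal regions, with the number of regions under each class. The isolated median is higher in the narrowest class (9.42 against 5.60), equal from 1200 to 2000 bp and lower in the 3 wider classes.

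Input density did not separate the sets by much. Per kb, the median isolated region held 6.05 input and 19.1 ChIP reads, and the median of the others was 6.43 and 20.6. In the lowest quartile of input reads per kb (5.0 or less), which held 648 isolated regions, the median raw ratio was 4.89 in isolated and 4.90 in other regions. In the higher quartiles it was 3.17 against 3.47, 2.65 against 2.86, and 2.17 against 2.28. At similar input, isolated regions thus had slightly fewer ChIP reads per kb, for example 18.3 against 20.0 in the second quartile, where the input medians were 5.83 and 5.79.

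The width of regions was smaller at larger distances to the nearer neighbour. The median width was 3800 bp where the nearer neighbour was under 2 kb away (22063 regions), 3200 bp from 25 to 50 kb (1902 regions), 3000 bp from 50 to 100 kb (1038 regions), 2800 bp from 250 to 1000 kb (208 regions) and 2700 bp at 1000 kb or more (22 regions). The median of ChIP reads per kb went from 21.3 to 19.1 between under 2 kb and 25 to 50 kb, and stayed between 19.1 and 19.5 beyond 50 kb. The median raw ratio was 3.27 under 2 kb, 3.09 from 25 to 50 kb, 3.15 from 50 to 100 kb, 3.00 from 250 to 1000 kb and 3.41 at 1000 kb or more. The share of regions at 4-fold or more was 8.41% under 2 kb and between 7.75% and 8.22% from 2 to 25 kb. It was 7.36% from 25 to 50 kb, 10.2% from 50 to 100 kb and 12.8% from 100 to 250 kb. Farther away it was 11.5% from 250 to 1000 kb and 27.3% at 1000 kb or more. The share of regions of 1000 bp or less was 1.03% under 2 kb and between 1.17% and 1.55% from 2 to 25 kb. From 25 kb on, it was 1.74%, 2.12%, 3.29%, 5.77% and 18.2% in the same order. The last of these groups held only 22 regions. Among isolated regions alone, the distance to the nearer neighbour had a Spearman correlation of -0.0654 with width and 0.00679 with raw ratio (n = 1876), so within the set the distance hardly ranked either measure.

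**Figure D4:**
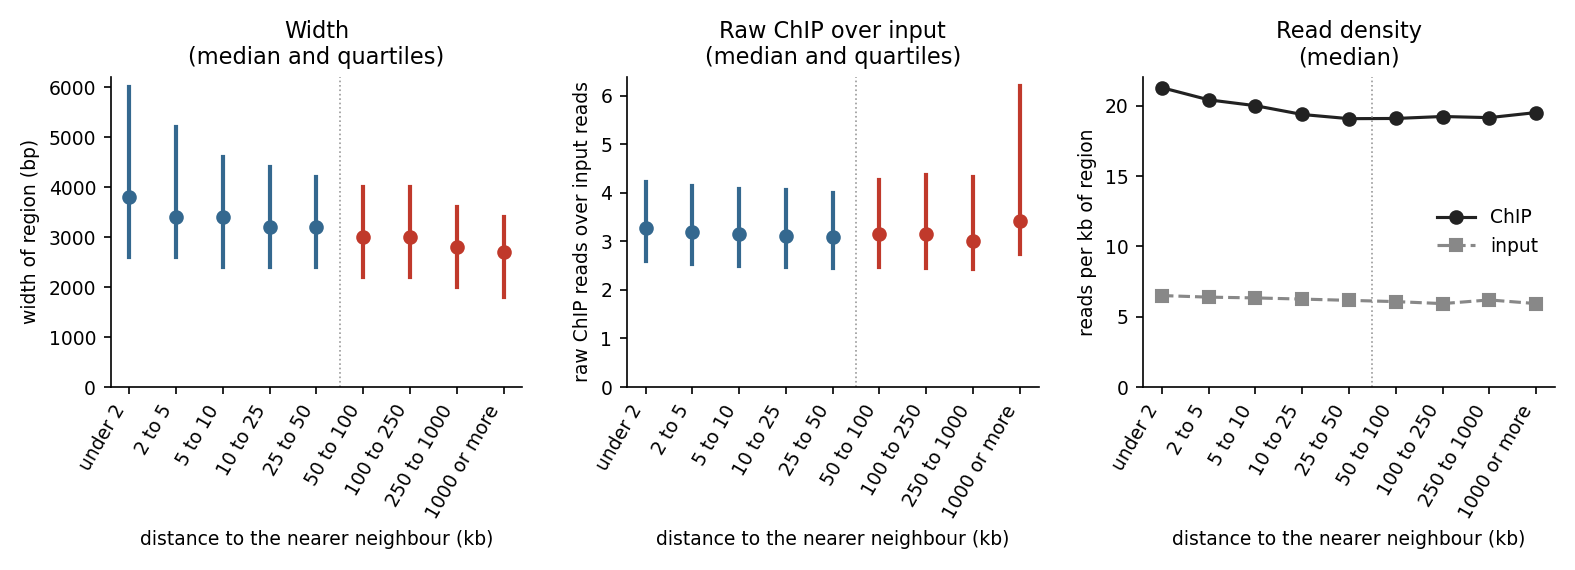
Autosomal regions other than the first and last of each chromosome are grouped by the distance to the nearer neighbour in kb, and the dotted line marks 50 kb, beyond which all regions are isolated. Median width (left, with quartiles) goes from 3800 to 2700 bp, median raw ChIP over input (middle, with quartiles) stays between 3.00 and 3.41, and median ChIP and input reads per kb (right) differ little beyond 50 kb.

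The degree of isolation varied widely. The nearer neighbour of an isolated region was a median of 92.8 kb away, with quartiles at 65.0 and 155 kb, and the farther one a median of 247 kb away. In 838 isolated regions (44.7%) the nearer neighbour was 100 kb or more away, in 230 (12.3%) it was 250 kb or more away, and in 22 it was 1 Mb or more away. Within 1 Mb on either side, an isolated region still had a median of 33 other regions (quartiles 17 and 54), and the other autosomal regions had a median of 71 (quartiles 48 and 100). The surroundings of most isolated regions thus held further regions. They held fewer than those of the others, which the rule brings about in part, since it chose regions by the same positions. Of the isolated regions, 142 (7.57%) had 5 or fewer regions within 1 Mb, as did 146 of the 47171 others (0.310%). By the rule, nearby isolated regions may be each other's neighbours: 1113 (59.3%) were next to another isolated region in the list and 763 were not. The longest run held 9 isolated regions over 2.21 Mb on chromosome 11, from 22786801 to 25000400. Their widths ran from 1000 to 7400 bp and their raw ratios from 1.97 to 6.20, with a median of 2.83. The narrowest of the run, which closed it, had the highest ratio (62 ChIP and 10 input reads).

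Isolated regions were spread more evenly over chromosomes than regions in general. Their number per Mb ran from 0.595 on chromosome 12 to 0.904 on chromosome 11, a 1.52-fold range. All regions ran from 7.23 per Mb on chromosome 7 to 36.1 per Mb on chromosome 15, a 4.99-fold range. Much of this range came from these chromosomes, since the other autosomes had from 15.3 (chromosome 14) to 27.7 regions per Mb (chromosome 13). By the rule, closely placed regions cannot be isolated, so both the number and the share of isolated regions depend on this density. How much of the even spread this brings about was not tested. Accordingly, the share of regions that were isolated was highest on chromosome 7, at 11.2% (124 of 1103), and lowest on chromosome 15, at 1.74% (65 of 3733), with a median of 3.86% over the autosomes. Chromosome 7 also had the highest median raw ratio of isolated regions, 4.09, but its other regions had 4.11. Chromosome 15 had the lowest, 2.59, and its other regions had 2.78. The isolated regions had the smaller median width on 19 of 19 autosomes, at 0.700 to 0.941 times the other regions of the same chromosome. Their median raw ratio was lower on 15 and higher on 4 autosomes, at 0.882 to 1.03 times, so that the small difference in ratio was not shared by every chromosome. Along the chromosomes, 5.08% of the regions in the first 20% of the chromosome length were isolated (336 of 6615), and between 3.42% and 3.79% in the later stretches of equal length. The number of isolated regions was not raised in the first stretch. The later ones held 331 to 436 isolated regions among 9676 to 11613 regions.

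**Figure D5:**
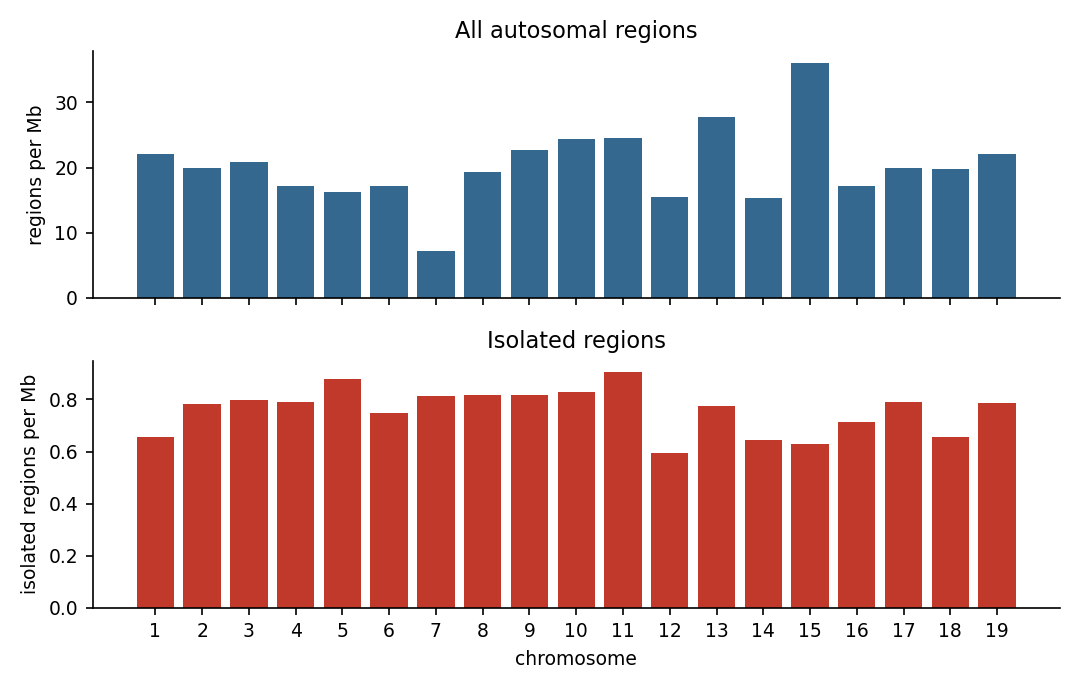
Bars give the number of all regions (top) and of isolated regions (bottom) per Mb on each autosome, where the length of a chromosome was taken as its highest region end. All regions range from 7.23 to 36.1 per Mb and isolated regions from 0.595 to 0.904 per Mb.

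The most isolated region lay on chromosome 12 from 66004001 to 66006800. Its neighbours were 8630 kb and 4453 kb away, and it held 53 ChIP and 6 input reads, a raw ratio of 8.83 (95% exact interval 3.8 to 25.1). The next was on chromosome 1 from 116560801 to 116563600, 7779 kb and 4010 kb from its neighbours, with 48 ChIP and 24 input reads and a ratio of 2.00 (1.20 to 3.41). This interval includes 1.45, so counting error alone did not separate the region from no enrichment. The same held for the third, on chromosome 4 from 29012001 to 29015200, with a ratio of 1.88 (1.15 to 3.16) and 2453 kb to its nearer neighbour. The fourth, on chromosome 5 from 69991401 to 69993400, had 44 ChIP and 17 input reads and a ratio of 2.59. Its interval from 1.44925 to 4.83 just included the unrounded scaling factor of 1.44988, so it was not separated from no enrichment either. The fifth, on chromosome 16 from 72804401 to 72804800, was only 400 bp wide and held 33 ChIP reads and 1 input read (interval of the ratio 5.52 to 1342). Extreme isolation thus came with strong as well as with weak enrichment.

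Where isolated regions held over 3 input reads, the raw ratio reached at most 25 (12.4 to 58.7). This value came from chromosome 17, where the region was 1400 bp wide and ran from 4626001 to 4627400, with 200 ChIP and 8 input reads and its neighbours 1063 kb and 75 kb away. A region on chromosome 7 from 29231601 to 29233000 followed with 57 ChIP and 4 input reads and a ratio of 14.2 (5.27 to 54.1). The third also lay on chromosome 7, from 56278801 to 56289200, and differed from the rest in its width of 10400 bp. It held 270 ChIP and 19 input reads, a ratio of 14.2 (8.92 to 24.0). Its density of 26.0 ChIP reads per kb was not far above the median of isolated regions, whereas its 1.83 input reads per kb lay below the 5th percentile of 2.69. By contrast, the fourth region, on chromosome 2 from 16604601 to 16605000, had 150 ChIP reads per kb, with 60 ChIP and 5 input reads in 400 bp and a ratio of 12 (4.87 to 38.3). Next came a region on chromosome 4 from 32475801 to 32477400, with 58 ChIP and 5 input reads and a ratio of 11.6 (4.70 to 37.1), and 1 isolated region on chromosome 7 had the same counts.

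No input read was found in 6 isolated regions (0.320%), compared with 17 of the 47171 others (0.0360%). All of these 6 were 1000 bp wide or less. Taken against a floor of 3 input reads per region, the raw ratio was at least 20.7 on chromosome 6 from 125826801 to 125827400 (62 ChIP reads), at least 16.0 on chromosome 6 from 69466201 to 69466600 (48 reads), and at least 9.0 on chromosome 8 from 108517601 to 108518600 (27 reads). It was at least 8.67 on chromosome 14 from 33667201 to 33667600 (26 reads) and at least 7.33 on chromosome 8 from 75114401 to 75114800 (22 reads). The two-sided 95% exact interval is stricter than this floor, and its lower limits were 16.3, 12.5, 6.83, 6.56 and 5.48. The remaining one, on chromosome 9, had 17 ChIP reads in 200 bp.

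On chromosome 1, the widest isolated region ran from 90122001 to 90161200, a width of 39200 bp. It held 1306 ChIP and 797 input reads, the most of both in the set, and a raw ratio of 1.64 (1.5 to 1.79). The next widest, on chromosome 4 from 128297201 to 128329800, spanned 32600 bp with 829 ChIP and 193 input reads and a ratio of 4.30 (3.67 to 5.05), so these regions differed beyond counting error. The third, on chromosome 8 from 86629201 to 86647400, had 575 ChIP and 354 input reads and the lowest ratio of the set, 1.62 (1.42 to 1.86). The next ones lay on chromosome 3 from 94714201 to 94728600, with a ratio of 2.57 (2.08 to 3.20), and on chromosome 16 from 90072001 to 90085000, with 4.18 (3.39 to 5.19).

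The 3 lowest ratios of the set accompanied high input. Beside the widest region and the one on chromosome 8, with 20.3 and 19.5 input reads per kb, they included a region on chromosome 4 from 146890201 to 146894800, which held 174 ChIP and 105 input reads, a ratio of 1.66 (1.29 to 2.13) and 22.8 input reads per kb. In all, 10 isolated regions (0.533%) exceeded 15 input reads per kb, against 0.350% of the others. Their median raw ratio was 1.98, with a range from 1.62 to 4.25. ChIP reads were dense there as well, at a median of 36.4 per kb.

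At the limit of the rule, 9 isolated regions had their nearer neighbour at exactly 50.0 kb and 7 further regions missed the limit at 49.8 kb, 1 step of 200 bp below it. The 3 listed first just inside had raw ratios of 3.39, 2.08 and 4.0 and widths of 3200, 5200 and 4200 bp. Those just outside had ratios of 3.15, 2.17 and 5.11 and widths of 7400, 3600 and 2200 bp.

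Finally, the isolated regions were set beside the 5 amplicons that the study used for ChIP-qPCR at genes of matrix and adhesion proteins. None of the regions over or nearest to these amplicons was isolated. Since 3.82% of all autosomal regions were isolated, so few regions say nothing about isolation at these genes. The region over the amplicon of Fn1, which encodes the matrix protein fibronectin, had 1 neighbour at 3.20 kb and the other at 123 kb. The region over the amplicon of Itga11, which encodes an integrin subunit, had neighbours at 2.60 and 33.0 kb. Around Col1a1, which encodes a collagen chain, the nearest regions bordered a stretch of 62.0 kb without a region on 1 side and had a neighbour within 1.60 kb on the other.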

How the data were processed

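Per the labels and the study's methods, single reads of 1 ChIP and 1 input library were aligned to mm9 with Bowtie2 2.0.6, and regions were called with SICER, a caller for broad domains, at a window of 600 bp and a gap of 1200 bp. The deposited list carries the name epic, which the study's methods do not mention, and it does not match these settings. Of the autosomal widths, 66.9% were no multiple of 600 bp. The smallest width was 200 bp, the smallest gap was 800 bp, and 17.1% of gaps were under 1200 bp. The settings that made the list are therefore not known here, and widths and distances depend on them. The deposited list gives, as made by the authors' caller, raw counts of ChIP and of input reads per region, an FDR (a p-value adjusted by the caller) and a log2 fold change after library scaling. The log2 values served only to find the scaling factor, 1.45, and the list goes up to an FDR of 0.0499.

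Widths were taken with the last base included, and steps were 200 bp. Distances, which leave the first and last regions of chromosomes out where grouped, were counted in bases between regions of the same chromosome. Regions without input reads ranked highest in medians of the ratio. Python 3.11.15, numpy 2.4.6, pandas 2.3.3, scipy 1.17.1 and matplotlib 3.10.9 were used, and the finding of isolated regions and the intervals were tested on simulated data. Regions were named by rank lists: the most isolated, the highest and lowest ratios, those without input reads, the widest, those with the most reads and those at the limit. The rule, lists, classes and alternatives were chosen with earlier results of these data known. The reference at hand was GRCm38, and no coordinates were converted.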

Additional observations from a re-analysis of the deposited data

How the results depend on the processing

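The 6 main values were recomputed with other choices, and 48 of the results stayed within 1.5 times the count or within the interval of the value, while 28 did not. For medians this interval was taken over regions as if they were independent. It served only as a label for the size of a shift and does not measure replicate error. The number of isolated regions was 3778 with a distance of 25 kb and 838 with 100 kb, and median width and ratio stayed close. At an FDR of 0.01 the median raw ratio of isolated regions was 3.25 and 61.7% reached 2-fold; with a 2-fold filter, which removes weak regions, these were 3.88 and 100%. Of the regions isolated at an FDR of 0.01, 92.4% were isolated in the whole list, and of those isolated after the 2-fold filter, 46.8%. Joining within 10 kb, which widens regions in chains, gave a median width of 3800 bp and 0.442 times that of the other regions. With at least 10 input reads, the values were 3200 bp, a ratio of 2.88, 0.842 and 0.939 times the others, and 49.2% at 2-fold. Among regions whose interval lay above 1, the ratio was 3.56, 74.7% reached 2-fold, and isolated regions were at 1.04 times the others; this filter selects on the ratio itself and, at lower counts, keeps only higher ratios, so the turn says nothing about the comparison. It was also turned at 1000 bp or less (1.68 times) and was 0.914 times from 3200 to 4000 bp, and 0.915, 0.926 and 0.952 times in the 3 higher quartiles of input density. Within autosomes the width was 0.700 to 0.941 times and the ratio 0.882 to 1.03 times the others. At 1.5-fold, 3-fold and 4-fold the shares were 85.6%, 24.6% and 11.4%. The cause of the shifts without a stated construction was not tested. The comparison with regions that have both neighbours near, and without regions of 1000 bp or less, was added after the data had been seen and gave 0.972 times for either ratio. No replicate could be left out, since each group consists of a single library. Depth limits single regions, since the median isolated region rests on 53 ChIP and 18 input reads.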

Other observations

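Chromosome X was outside the rule. It held 1840 regions, of which 216 (11.7%) had both neighbours 50 kb or more away, or 1.30 per Mb. These had a median width of 2800 bp and a median raw ChIP over input of 3.25, and the other regions of the chromosome had 3400 bp and 3.26. The share of 11.7% was near that of chromosome 7 (11.2%), the autosome with the fewest regions per Mb. The number per Mb was not: 1.30 lay above 0.813 on chromosome 7 and above 0.904, the highest value of any autosome.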
